A study of Homo sapiens with 24 samples.

Results

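Among the H3K4me3 regions of EndoC-βH3 cells, 630 were bidirectional protein-coding promoters. H3K4me3, trimethylation of lysine 4 on histone H3, marks the nucleosomes around active transcription start sites. A region was counted as a bidirectional promoter where it was autosomal, under 8000 bp wide, and held the starts of a minus-strand and a plus-strand protein-coding gene that point away from each other and lie at most 1000 bp apart. A gene's start was the 5′ end of the gene in GENCODE release 44, on the hg38 build. The 630 regions were 0.646% of the 97545 regions in the table and 7.47% of the 8436 autosomal regions under 8000 bp that held any protein-coding gene start. They held 683 divergent pairs made of 1312 genes.

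EndoC-βH3 is a human beta cell line that grew from fetal pancreas and was immortalized with telomerase and the SV40 large T antigen, both of which 4-hydroxytamoxifen (4-OHT) removes through an inducible Cre. Loss of the T antigen frees p53 and Rb, and the cells then enter senescence. The H3K4me3 assay was MINT-ChIP, a barcoded immunoprecipitation of MNase-cut chromatin, on 4 non-senescent samples without 4-OHT and 4 senescent samples given 4-OHT for 3 weeks, at 1 mM by the labels and 1 μM by the methods of the study, with 500000 cells in each and a genotype labelled WT in both groups. All samples come from 1 cell line, and the other 16 of the 24 samples, which profiled H3K27me3 and H3K9me3, were not analysed here. For each region the values used here were its coordinates and the authors' mean normalized count, pooled over the samples of both states. No value per sample was used, so the senescent and non-senescent states were not compared, no replicate error could be attached to a value, and the differences given here are descriptions of regions with no test.

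A bidirectional promoter serves a pair of neighboring genes that are transcribed away from each other from a shared, usually CpG-rich, stretch of open chromatin. Nucleosomes on either flank carry H3K4me3, since each flank is the first part of a gene. Such promoters are known to be frequent among housekeeping genes, those of DNA repair, chaperones and mitochondria included, and histone genes often share a promoter between an H2A and an H2B gene.

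Sequences between the starts of 8 pairs show what these shared stretches hold. Each is the hg38 plus strand from the base after the start of the minus-strand gene to the base before the start of the plus-strand gene, so that it holds no annotated base of either gene. Capitals mark matches, on either strand, to the 10 promoter motifs that are spelled out with their counts further on. PPAT and PAICS, enzymes of purine synthesis, are a textbook divergent pair, and 5 pairs each include a gene of the study's cell cycle list, the process that stops in senescence. These 5 had the highest mean normalized counts of the list among stretches of 30 to 300 bases whose genes are both in the table of RefSeq promoters used here.

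PPAT/PAICS, chr4:56435616-56435740: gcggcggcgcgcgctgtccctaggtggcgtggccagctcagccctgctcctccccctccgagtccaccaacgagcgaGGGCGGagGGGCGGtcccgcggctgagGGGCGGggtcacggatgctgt
SHC1/CKS1B, chr1:154974396-154974652: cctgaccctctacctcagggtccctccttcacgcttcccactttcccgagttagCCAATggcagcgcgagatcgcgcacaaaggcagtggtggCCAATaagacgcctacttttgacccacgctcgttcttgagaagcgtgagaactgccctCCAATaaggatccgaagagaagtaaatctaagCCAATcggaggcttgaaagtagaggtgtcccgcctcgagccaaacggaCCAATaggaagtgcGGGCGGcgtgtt
NUDCD2/HMMR, chr5:163460103-163460202: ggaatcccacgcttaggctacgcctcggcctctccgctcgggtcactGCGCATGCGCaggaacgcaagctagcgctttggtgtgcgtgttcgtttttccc
METTL4/NDC80, chr18:2571510-2571556: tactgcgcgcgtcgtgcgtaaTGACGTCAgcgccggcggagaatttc
TMEM258/FEN1, chr11:61792803-61792910: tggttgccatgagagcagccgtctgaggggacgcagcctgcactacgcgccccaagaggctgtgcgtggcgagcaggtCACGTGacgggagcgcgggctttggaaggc
TIPIN/MAP2K1, chr15:66386747-66386836: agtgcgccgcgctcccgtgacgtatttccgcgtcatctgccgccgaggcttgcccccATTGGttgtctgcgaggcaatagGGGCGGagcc

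The PPAT/PAICS stretch was 125 bases long with a GC content of 76%, and held 3 GC boxes in 1 orientation. The SHC1/CKS1B stretch, between an adaptor of growth factor signalling and a regulatory subunit of cyclin-dependent kinases, held 5 CCAAT boxes and 1 GC box in 257 bases. The NUDCD2/HMMR stretch held a palindrome in which 2 NRF1 matches overlap, 1 on each strand. METTL4/NDC80 and TMEM258/FEN1, which include the kinetochore gene NDC80 and the flap endonuclease gene FEN1, held 1 CRE and 1 E-box respectively. TIPIN/MAP2K1, the genes of a replication fork protein and of the kinase MEK1, held 1 CCAAT box and 1 GC box.

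A pair of histone promoters is shown as well, because its letters differ from those above. Both pairs join an H2A gene to an H2B gene and were chosen after their values had been seen.

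H2BC21/H2AC20, chr1:149886683-149886917: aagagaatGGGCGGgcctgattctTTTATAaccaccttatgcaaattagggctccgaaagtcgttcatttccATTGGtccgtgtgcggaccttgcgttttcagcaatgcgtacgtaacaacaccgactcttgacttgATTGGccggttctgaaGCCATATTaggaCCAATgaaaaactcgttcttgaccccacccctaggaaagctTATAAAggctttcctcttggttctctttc
H2AC17/H2BC17, chr6:27893186-27893424: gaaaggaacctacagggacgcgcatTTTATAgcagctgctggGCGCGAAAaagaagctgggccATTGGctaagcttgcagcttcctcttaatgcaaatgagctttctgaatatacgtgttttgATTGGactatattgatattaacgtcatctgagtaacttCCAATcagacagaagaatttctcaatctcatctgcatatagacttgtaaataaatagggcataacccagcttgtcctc

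Both histone stretches held 3 CCAAT boxes. H2BC21/H2AC20 also had 2 TATA boxes toward its opposite ends, a GC box and a YY1 match, and H2AC17/H2BC17 had 1 TATA box and 1 E2F match. Their GC contents of 46.4% and 41.4% were below the GC contents of the 6 other stretches, which ran from 55.6% to 76%.

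Bidirectional promoters carried more H3K4me3 than promoters of a single gene. Their median mean normalized count was 85.1, with quartiles of 56.1 and 122.7 and a range from 2.16 to 374.2 over 630 regions. The 7106 one-gene promoters, regions that held exactly 1 protein-coding start, had a median of 50.9 and quartiles of 24.6 and 86.7. The ratio of the medians was 1.67, and 504 of the 630 bidirectional promoters (80%) lay above the one-gene median.

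The regions were also wider. The median bidirectional promoter was 3452 bp wide against 2561 bp at one-gene promoters, a ratio of 1.35. Divided by width, the median was 23.9 normalized counts per kb against 19.2, a ratio of 1.25. A region must span both starts to qualify, so narrow regions enter the bidirectional group less easily, and the mean normalized count followed width among the 630 (Spearman's rho 0.756) and among one-gene promoters (rho 0.844). These correlations are across regions that share all libraries, and regions are not independent replicates.

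Of the regions with several starts in other arrangements, those with starts on both strands were close to the bidirectional ones in level and width. The 427 regions that held starts on opposite strands in another order or spacing, such as convergent or overlapping genes, had a median of 88.9 normalized counts and a width of 3409 bp. The 273 regions with several starts on 1 strand lay nearer to the one-gene promoters, with a median of 64.9 and a width of 2855 bp. The 86860 regions with no protein-coding start had a median of 3.85 and a width of 637 bp.

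**Figure D1:**
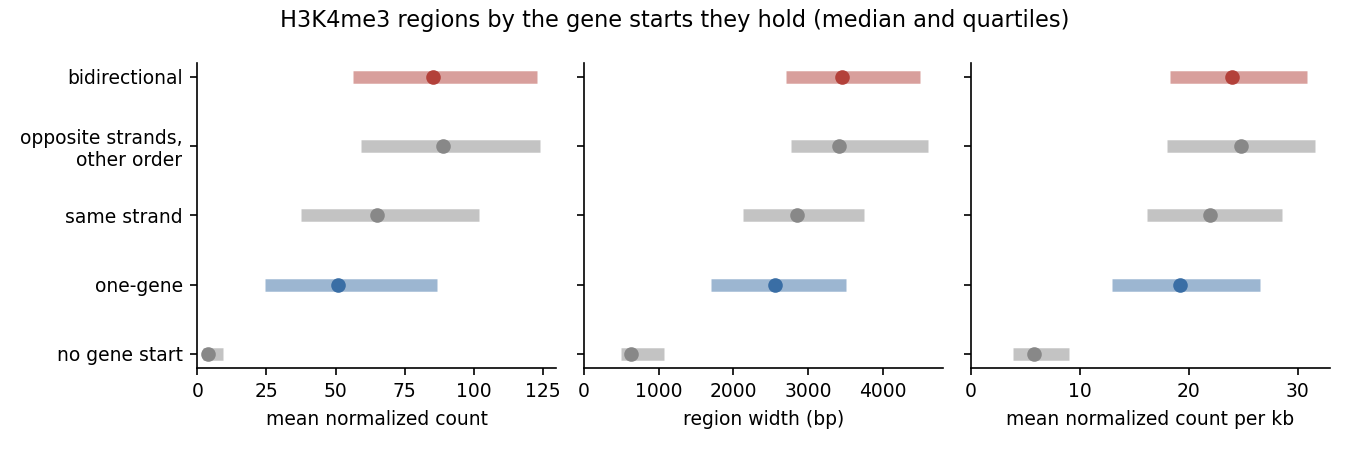
Medians (points) and quartiles (bars) of the mean normalized count, the width in bp and the mean normalized count per kb for 5 classes of autosomal regions under 8000 bp. The bidirectional median of 85.1 normalized counts lies near the upper quartile of the one-gene promoters, 86.7, and next to the median of 88.9 for opposite strands in another order.

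Low levels were rare among bidirectional promoters. Of the 630, 7 (1.11%) had a mean normalized count below 10, against 9.74% of one-gene promoters, and 628 were at or above 4.40, the median of all regions. Only 1 bidirectional promoter had a width of exactly 500 bp, the width of 36231 regions of the table, against 154 one-gene promoters (2.17%).

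Set beside one-gene promoters of similar level, bidirectional promoters were nearly the same width. The 630 were cut by mean normalized count into 5 level groups of 126 regions each, and the one-gene promoters within the limits of each group were set beside them. In groups 2 to 5 the median widths were 3044, 3427, 4133.5 and 5116.5 bp at bidirectional promoters against 2848, 3346, 3965.5 and 5079.5 bp at one-gene promoters. Those are ratios from 1.01 to 1.07. In the lowest group the widths were 2254 and 1754 bp, but there the levels were not matched, with medians of 36.1 normalized counts at bidirectional and 24.99 at one-gene promoters.

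The per kb level at similar totals likewise showed no common direction. The ratio of bidirectional to one-gene medians was 1.10 in the lowest group, 0.936, 0.964 and 0.959 in the next ones and 1.03 in the highest. Cut by width instead, bidirectional promoters kept the higher mean normalized count in each of 5 width groups, with ratios of 1.74, 1.15, 1.07, 1.12 and 1.09 from narrow to wide. In the narrowest group the widths were not matched, with medians of 2067.5 bp at bidirectional and 1674 bp at one-gene promoters.

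GC content changed its order in the same comparison. Over all regions the median GC content was 49.7% at bidirectional and 51.9% at one-gene promoters, a difference of -2.15 percentage points. Within the 5 level groups, the difference of bidirectional minus one-gene promoters was -0.368 points in the lowest group and 1.92, 0.618, 0.202 and 0.0161 points in groups 2 to 5. GC content, taken over the whole region, fell with the mean normalized count among bidirectional promoters (rho -0.604 over 630 regions) as among one-gene promoters (rho -0.535 over 7106). It also fell with width. From the narrowest to the widest width group its median went from 54.4% to 46.1% at bidirectional and from 55.3% to 46.0% at one-gene promoters. Level and width were not separated. The ratio of observed to predicted CpG was 0.597 and 0.616 in the 2 classes, and 0.202 in regions with no start.

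**Figure D2:**
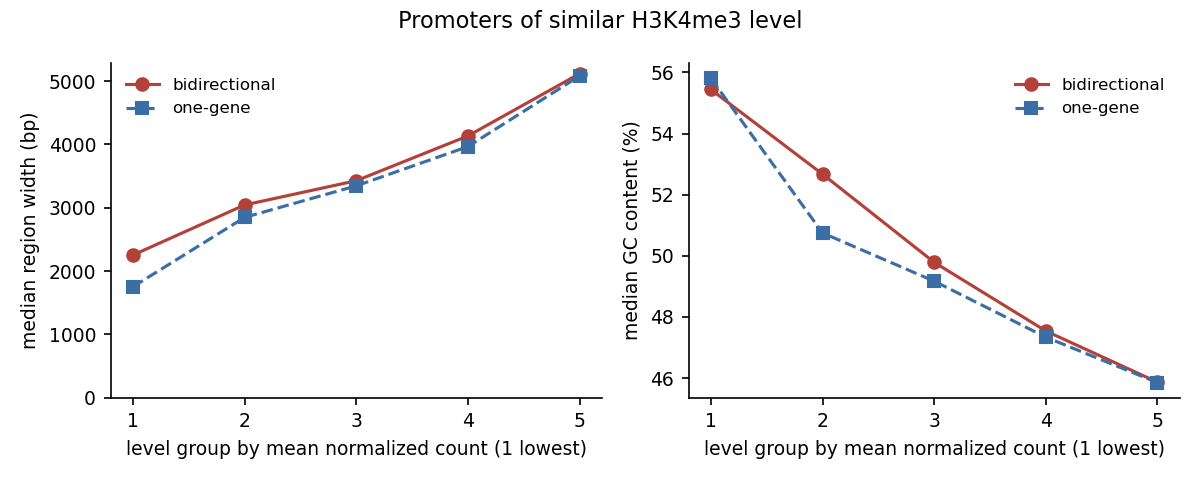
Median region width in bp (left) and median GC content in % (right) of 126 bidirectional promoters (circles) and the one-gene promoters within the same limits (squares), for 5 level groups of the mean normalized count from 1, the lowest, to 5. The lines nearly meet from group 2 on for width, and the bidirectional GC content lies 1.92 points above the one-gene value in group 2.

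H3K4me3 extended into both genes at most bidirectional promoters. The median region reached 1570.5 bp into the minus-strand gene and 1615 bp into the plus-strand gene, about as far as the 1591 bp by which a one-gene region reached into its gene. Upstream of a start the classes differed. A bidirectional region covered a median of 1744 bp upstream of each of its starts and a one-gene region 865.5 bp. At a bidirectional promoter this upstream stretch is the reach into the partner gene plus the distance between the starts. It is thus no separate measure. The one-gene regions in the comparisons of reach are all 7106, not matched to the bidirectional ones for level.

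The reach into each gene was compared within regions. The shorter of the 2 reaches had a median of 1279 bp and the longer 1961.5 bp, and in 202 regions (32.1%) the longer was at least 2 times the shorter. The longer reach lay in the plus-strand gene in 321 regions (51.0%), so that the strands were nearly even. In 567 regions (90%) the mark covered at least 500 bp of both genes, and 45 of the 63 others covered at least 1000 bp of 1 gene with under 500 bp of its partner. PATL2/B2M was among those with a reach over 2 times longer on 1 side, with 642 bp into PATL2 and 3032 bp into B2M, the gene of the light chain of MHC class I. One-gene regions were longer on the side of the gene in 5401 cases (76.0%). They reached at least 500 bp on both sides of their start in 4989 cases (70.2%), though they hold no second protein-coding start. These shares too are over one-gene regions not matched for level.

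**Figure D3:**
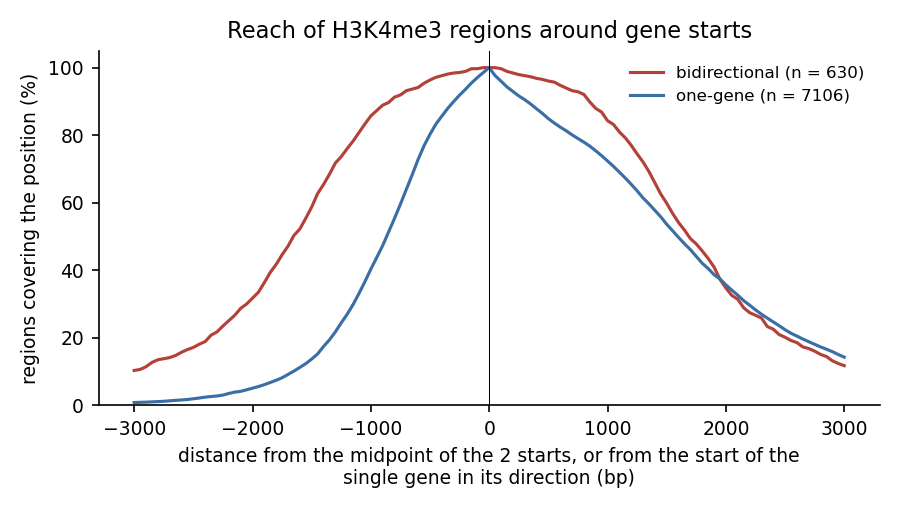
Share of regions (%) that cover each position from 3000 bp before to 3000 bp after the midpoint between both starts (bidirectional, 630 regions, plus strand to the right) or the start of the gene (one-gene, 7106 regions, in the gene's direction). At 1000 bp to the left 85.7% of bidirectional and 40.3% of one-gene regions still cover the position, and at 2000 bp to the right 34.8% and 35.7% do. The classes were not matched for level.

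Starts of the closest pair in a region lay a median of 113.5 bp apart, with quartiles of 62 and 215.75 bp and a range from 1 to 995 bp. The level did not follow this distance (rho 0.0136 over 630 regions), and neither did the width (rho 0.0915). Median mean normalized counts were 84.9 for 118 regions with starts up to 50 bp apart, 84.8 for 156 regions at 50 to 100 bp, 84.2 for 185 at 100 to 200 bp, 95.7 for 117 at 200 to 400 bp and 68.0 for 54 at 400 to 1000 bp. Exactly 2 starts were found in 556 regions, 3 in 67 and 4 in 7.

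The members nearest the limits lay outside the quartiles of all members, with 5 of the 6 above the upper quartile and APBA3/MRPL54 below the lower one. They do not stand for distant pairs as a group, since the 54 regions with starts 400 to 1000 bp apart had a median of 68.0. Level also followed width, so high values are built into the choice of the widest members. The closest to the distance limit were H3C7/H2BC9, APBA3/MRPL54 and PSMB1/TBP, at 979, 990 and 995 bp, with mean normalized counts of 187.4, 34.4 and 205.3. Just outside it were TXNDC12/BTF3L4 and ENSG00000288654/ZNF654, at 1008 and 1039 bp, with 176.2 and 145.1. The widest members were CREB3L2/AKR1D1, PLAGL2/POFUT1 and NAA50/ATP6V1A, at 7559, 7631 and 7860 bp, with 143.5, 206.7 and 183.8. Regions of WDHD1/SOCS4, TSPYL4/DSE and HNRNPK/RMI1, at 8016, 8093 and 8113 bp, fell outside with 211.2, 204.8 and 201.4.

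The highest mean normalized count of a member was 374.2, at chr1:149883595-149889477, the H2BC21/H2AC20 region. It is one of 7 members with 4 starts, since BOLA1 and the histone gene H2AC21 also begin in it, and it spans both whole genes of the pair. SHC1/CKS1B followed with 333.6 at chr1:154972415-154977283. DHX29/MTREX, genes of RNA helicases in translation initiation and in the nuclear exosome, had 312.7. TTC23/LRRC28 had 296.9. It lay above 99.8% of one-gene promoters, and the 3 regions before it above at least as many.

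At the low end were genes known for restricted expression beside genes of general use. CHCHD10/MMP11, a mitochondrial protein and a matrix metalloprotease, had the lowest level at 2.16 normalized counts in 500 bp. GGN/SPRED3, with the germ cell gene GGN, had 3.03, and DUOX2/DUOXA2, the thyroid hydrogen peroxide oxidase and its maturation factor, had 4.88. TK1/AFMID, with the S phase enzyme thymidine kinase, had 6.04 in 913 bp, and INTS11/CPTP, with the Integrator endonuclease, had 7.06 in 1164 bp. Each reached under 500 bp into 1 gene or both.

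Per kb, narrow regions led. SLC25A12/METAP1D, genes of the mitochondrial aspartate and glutamate carrier and of a mitochondrial methionine aminopeptidase, had 84.5 normalized counts per kb over 1623 bp. TSPAN19/LRRIQ1 had 69.3 per kb over 1410 bp. They were followed by SHC1/CKS1B, a wide region and second by total, with 68.5 per kb over 4868 bp.

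Of 12 textbook divergent pairs, 3 were members. NPAT/ATM, the genes of a histone gene coactivator and of the DNA break kinase ATM, had starts 406 bp apart and 177.7 normalized counts over 5877 bp at chr11:108219696-108225573, with 2942 bp of it in NPAT and 2529 bp in ATM. PPAT/PAICS had 114.5 over 5808 bp, nearly evenly split into 2781 and 2901 bp. PRKDC/MCM4, the catalytic subunit of DNA-dependent protein kinase and a subunit of the replicative helicase, had starts 7 bp apart and 99.7 over 5015 bp.

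Other textbook pairs failed the rule in different ways. HARS1/HARS2, the cytosolic and mitochondrial histidyl tRNA synthetase genes, lay in 1 region with 87.2 normalized counts, but their outermost annotated 5′ ends overlap by 107 bp. HSPD1/HSPE1 and TRMT2A/RANBP1 had 1 start in a region, and TAP1/PSMB9 had both starts in regions but 9680 bp of overlap. COL4A1/COL4A2, COL4A4/COL4A3 and SURF1/SURF2 had neither start in a region. With 1 start for each gene, HARS1/HARS2 was not counted as divergent although both starts share a region.

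Annotated divergent pairs as a whole were mostly marked. Of 861 autosomal pairs with starts at most 1000 bp apart, 683 (79.3%) had both starts in 1 region under 8000 bp and 15 in a wider region. Another 60 had 1 start in a region, 102 (11.8%) had neither, and 1 pair had its starts in different regions. By gene, 1402 of 1659 genes of such pairs (84.5%) had their start in a region, against 8620 of 17452 other autosomal protein-coding genes (49.4%).

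Genes at bidirectional promoters were 13.3% of the 9879 autosomal genes with a start in a region, and gene groups were described against that share. Chaperonin subunits, which fold actin and tubulin among other proteins, had 5 of 8 (62.5%). TCP1/MRPL18 was highest with 169.3 normalized counts, followed by ATPSCKMT/CCT5 with 118.6 and CCT4/COMMD1 with 97.9. Histone genes had 25 of 59 (42.4%), and DNA repair genes 19 of 58 (32.8%).

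Of the gene lists, histones had the widest gap in level between the classes. The 25 at bidirectional promoters, which lie in 12 regions, had a median of 135.5 normalized counts and the 21 at one-gene promoters 38.6. Of 14 divergent pairs with a histone gene, 13 joined a pair of histone genes. After H2BC21/H2AC20, the highest were the region of H2AC17, H2BC17 and H3C12 with 191.6 and H2AC15/H2BC15 with 190.6. Histone genes are near-identical copies, and how reads that fit several copies were placed is not given in the sources used here.

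DNA repair genes at bidirectional promoters had a median of 95.9 normalized counts, against 80.5 for 29 repair genes at one-gene promoters. That gap was narrower than the one over all genes, with medians of 85.2 and 50.9. Among the highest were ATM, given above, and TP53BP1/MAP1A with 164.8, which holds the gene of the break response protein 53BP1. None of the 20 pairs with a repair gene joined a pair of repair genes. DNA replication genes had 9 of 40 (22.5%) at bidirectional promoters, led by VPS35/ORC6 with 168.0, UFD1/CDC45 with 124.9 and RARS2/ORC3 with 124.1.

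Nuclear genes of mitochondrial machinery lay above the share of all genes. Mitochondrial ribosome genes had 16 of 69 (23.2%), respiratory chain genes 15 of 66 (22.7%) and import genes 5 of 24 (20.8%). MRPL36/NDUFS6 joined the first 2 groups and led both with 195.6. TCP1/MRPL18 and MITD1/MRPL30, with 121.9, followed among ribosome genes, and MRPL46/MRPS11 was the only pair of 2 mitochondrial ribosome genes. NDUFS1/EEF1B2 with 121.2 and ATP5MK/PDCD11 with 114.7 followed in the respiratory chain. The import genes were led by TOMM70/LNP1 with 163.1, FBXO15/TIMM21 with 121.8 and TIMM8B/SDHD with 101.97, of which the last pairs an import chaperone with a subunit of complex II.

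Unlike histones, mitochondrial ribosome genes had like levels at bidirectional and one-gene promoters, with medians of 69.9 and 69.8 normalized counts. Cytosolic ribosome genes had 10 of 68 (14.7%) at bidirectional promoters, near the share of all genes, with a median of 70.2 against 87.1 at 48 one-gene promoters. Their highest were RPL9/LIAS with 125.0, MED22/RPL7A with 91.8 and RPS25/TRAPPC4 with 91.1. Aminoacyl tRNA synthetases had 3 of 33 (9.09%): LYRM4/FARS2 with 162.1, RARS2/ORC3 with 124.1 and SARS2/MRPS12 with 37.2.

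Cell cycle genes, of the list that the study used, had 16 of 80 (20%) at bidirectional promoters. Their median was 100.1 normalized counts, against 70.6 at 59 one-gene promoters. Over all genes the medians were 85.2 and 50.9, so a gap between the classes is not particular to this list. After CKS1B came AURKA/CSTF1 with 267.9, which pairs the mitotic kinase Aurora A with an mRNA cleavage factor, then NUDCD2/HMMR with 139.4, UFD1/CDC45 with 124.9 and METTL4/NDC80 with 121.7. No partner of these 16 genes was on the list. E2F targets had 32 of 160 (20%), with a median of 89.6 against 61.1, and beside CKS1B and AURKA the high members included USP37/CNOT9 with 204.5 and VPS35/ORC6 with 168.0.

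Genes of the p53 pathway had 16 of 109 (14.7%), near the share of all genes. SESN1/CEP57L1, with the stress gene SESN1, had 192.2 and RRP8/ILK had 137.5. Interferon stimulated genes had 15 of 148 (10.1%). PATL2/B2M was highest with 241.5, followed by ELF1/WBP4 with 202.0 and SBF2/ADM with 162.2, and 3 pairs joined genes that are both on the list: LIPA/IFIT5, IFIH1/GCA and BAG1/CHMP5.

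Beta cell genes were rare at bidirectional promoters. None of 45 genes of the beta cell maturity list with a start in a region lay at one, and 43 of these lay at one-gene promoters with a median of 45.4 normalized counts. Of 102 insulin secretion genes, 3 (2.94%) did: ENY2, with 140.9, SIRT3, with 83.4, and ILDR2, with 35.9. Zinc finger genes had 27 of 389 (6.94%), and of these ZNF425/ZNF398 with 131.5, ZNF891/ZNF10 with 128.7 and ZNF668/ZNF646 with 119.2 were highest. These 3 and ZNF829/ZNF568 joined a pair of zinc finger genes.

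**Figure D4:**
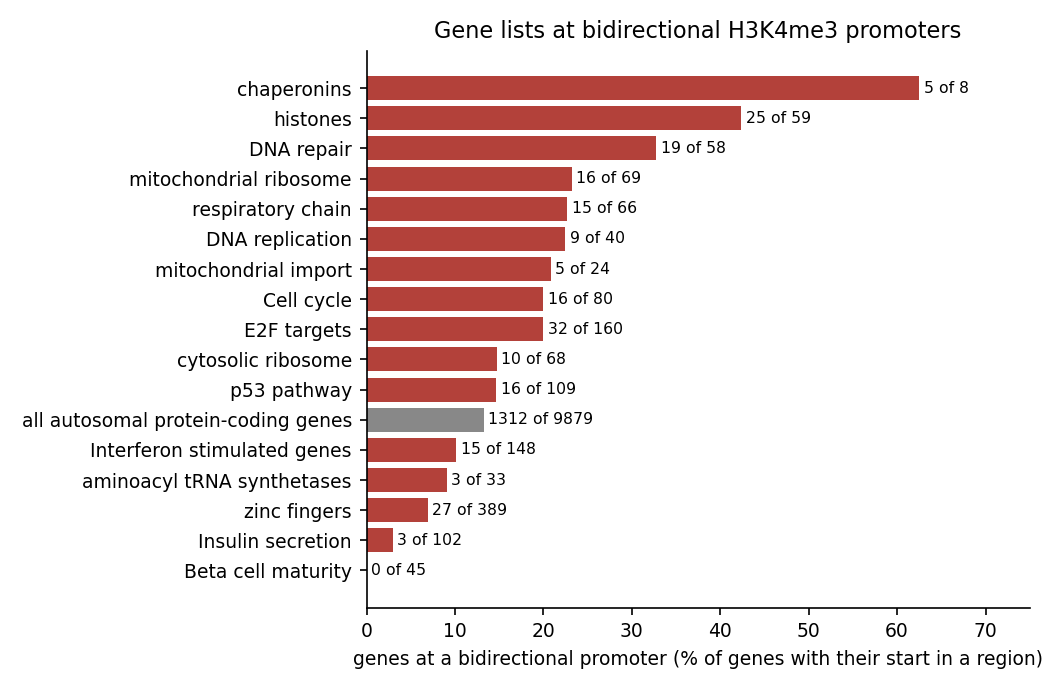
Share (%) of the genes of each list with a start in a region that lie at a bidirectional promoter, with the counts beside the bars, for 16 lists (red) and all autosomal protein-coding genes (gray). Chaperonins (5 of 8), histones (25 of 59) and DNA repair genes (19 of 58) lie farthest above the share of all genes, 13.3%, and beta cell maturity genes have 0 of 45.

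Promoter sequences of the 1312 genes were searched for the 10 motifs in 300 bases, from 250 before to 50 after each start, on both strands and with exact matches. The windows of a close pair overlap and can count 1 match for both genes, so shares are also given over 630 windows, 1 plus-strand gene for each region. Either way, most windows at bidirectional promoters also hold the partner's start, as the median distance between starts was 113.5 bp. A one-gene region holds 1 protein-coding start, so the classes were searched over unlike stretches. How much this adds to the bidirectional shares was not tested. A match is a run of letters and not a measured binding site. The one-gene shares are over all one-gene promoters, which were not matched to the bidirectional ones for level.

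The ETS family motif CCGGAAGT had the widest gap between the classes. It was found in 17.1% of genes at bidirectional promoters, 7.25% at one-gene promoters and 5.17% of all 19111 genes, with 16.7% over 1 gene for each region. The NRF1 motif GCATGCGC was found in 9.91%, 4.91% and 3.66% (9.84% over 1 gene for each region). The YY1 motif AANATGGC, where N is any base, was found in 12.4%, 7.85% and 6.77% (12.9%).

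The GC box and the CCAAT box were the most frequent of the 10 motifs in each class. The GC box GGGCGG of the SP family was found in 71.0% of genes at bidirectional, 62.4% at one-gene promoters and 52.6% of all genes, and the CCAAT box of NF-Y in 40.4%, 36.9% and 35.6%. The E2F family motifs TTTCCCGC, TTTGGCGC and TTTCGCGC, counted as 1 kind, were found in 6.40%, 4.05% and 3.29%. The CRE TGACGTCA was found in 4.73%, 3.15% and 2.30%, and the E-box CACGTG in 10.5%, 9.09% and 8.24%. Over 1 gene for each region these 5 were 71.1%, 39.5%, 6.67%, 5.08% and 11.4%.

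A pair of AT-rich motifs was less frequent at bidirectional promoters. The TATA box TATAAA was found in 5.34% of their genes, 7.80% at one-gene promoters and 10.9% of all genes. The cell cycle homology region, TTTGAA or TTCGAA, was found in 12.2%, 13.8% and 14.7%, an order that turned with another window, in which it had 11.4% at bidirectional and 10.3% at one-gene promoters. Over 1 gene for each region these were 5.56% and 12.7%. None of the 10 motifs contains another.

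Histone promoters, like the printed pair, held a set of their own. A CCAAT box was found in 25 of 25 histone genes at bidirectional promoters and 13 of 21 at one-gene promoters. A TATA box was in 18 of 25 and 11 of 21, and an E2F motif in 12 of 25 and 1 of 21. Neither the ETS nor the NRF1 motif was found in any of these windows. The 25 genes lie in 12 regions and the windows of a pair overlap, so 1 match can count for more than 1 gene.

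Mitochondrial ribosome genes differed from them in letters. At bidirectional promoters 7 of 16 had the YY1 motif and 5 of 16 the NRF1 motif, against 10 of 42 and 2 of 42 at one-gene promoters, whereas a GC box was found in 4 of 16 and 28 of 42. Cell cycle genes had a CCAAT box in 7 of 16 at bidirectional and 39 of 59 at one-gene promoters, a GC box in 8 of 16 and 44 of 59, and the cell cycle homology region in 7 of 16 and 32 of 59. An E2F motif was found in 3 of 16 and 9 of 59.

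**Figure D5:**
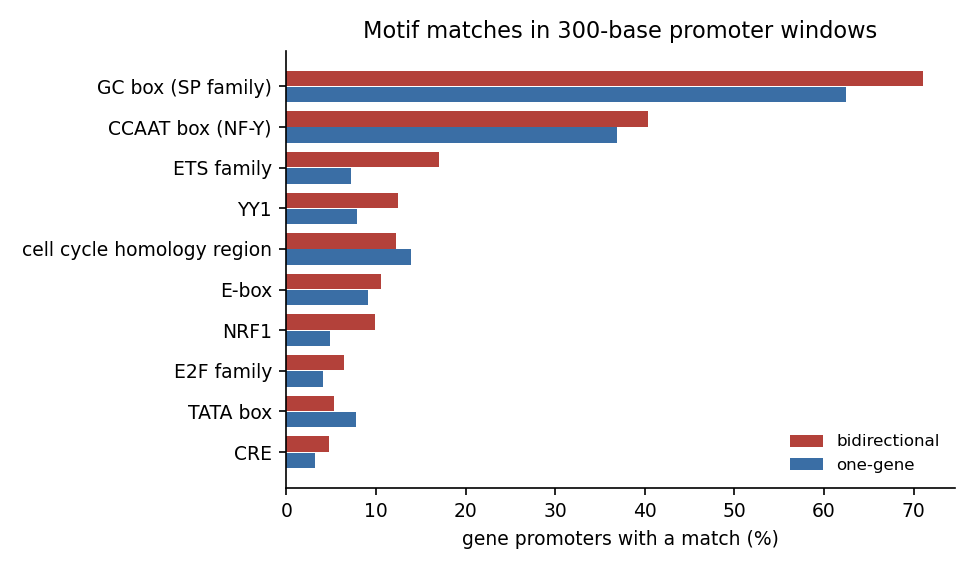
Share (%) of genes at bidirectional (1312 genes) and one-gene promoters (7106 genes) with at least 1 match to each motif in the 300 bases around the start. ETS, NRF1 and YY1 matches are more frequent at bidirectional promoters (17.1%, 9.91% and 12.4% against 7.25%, 4.91% and 7.85%), and TATA boxes are less frequent (5.34% against 7.80%).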

How the data were processed

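MINT-ChIP for H3K4me3 covered 4 samples of control and 4 of senescent EndoC-βH3 cells. Paired-end reads were mapped by the authors with Bowtie2 (hg38) and handled with samtools. The authors took peaks from HOMER, and used DESeq2 for normalization and for the contrast between states. How peaks were merged, how reads were counted and whether duplicates were removed is not given in the sources used here. The deposited signal of a region is the authors' mean over samples of counts normalized in DESeq2. The deposited table also holds the authors' log2 fold change between the states with its standard error, statistic, p-value and adjusted p-value. These columns are the study's own comparison and were not used. Depth per sample is unknown, and nothing in the labels says that samples of a group came from separate cultures.

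Regions were joined to gene 5′ ends of GENCODE release 44 protein-coding genes, and GC content and motifs were read from hg38, with Python 3.11.15, numpy 2.4.6, pandas 2.3.3 and scipy 1.17.1. All regions lay within the hg38 chromosome lengths. Search and classification were tested on simulated data. Reads of nearby copies and of wide regions enter the mean as the authors counted them, so a wider region collects more reads, and the value per kb divides the mean normalized count by the width. The 16 gene lists are 6 of the study's lists, by gene name, and 10 textbook groups. Named regions are the textbook pairs, the 5 highest and 5 lowest by mean normalized count, the 3 widest, the 3 highest per kb, the 3 highest of each list (5 for cell cycle and E2F targets) and those nearest the limits of 1000 and 8000 bp. Printed sequences come from hg38, for pairs with both genes in a RefSeq promoter table (GRCh38.p14). Some regions that this rule names are not reported here. Members, lists and rules were chosen with earlier results of these data known. Alternatives varied the distance, width, level, start and motif window.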

Additional observations from a re-analysis of the deposited data

How the results depend on the processing

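A total of 10 alternatives to the choice of regions were tried, each alone. A median or ratio was taken as unmoved within 10% of its reported value, a count within 1.5-fold, a GC difference within 1 percentage point, and a motif share within its 95% Wilson interval. Of 102 recomputed values, 94 were unmoved, 7 moved and 1 changed its order. Several alternatives kept nearly the same bidirectional promoters as the 630 reported. With regions exactly 500 bp wide left out 629 remained, with read-through genes left out 625, and with no width limit there were 645. Level limits at the median of all regions and at 10 normalized counts left 628 and 623. In these settings the number and medians of bidirectional promoters could hardly move, so the tally says little about them. The GC limit was wider than most GC differences within level groups, so it says little about them. Motif shares were checked at bidirectional promoters and for the order of the classes, so the gap between classes could shift unmarked. The Wilson interval treats the 1312 genes as independent, although the windows of a close pair overlap. With regions under 4000 bp wide, 417 bidirectional promoters qualified, with a median of 66.4 normalized counts, a width of 2936 bp and a GC difference from one-gene promoters of -0.915 points. With the start of any protein-coding transcript in place of the gene's 5′ end, 1069 regions qualified, the ratio to one-gene promoters was 1.98 for the mean normalized count and 1.38 per kb. With 150 bases on either side of the start, the cell cycle homology region was found in 11.4% of genes at bidirectional promoters, above the one-gene share. In that window the gap between classes narrowed for the GC box (71.1% against 65.8%) and the TATA box (4.42% against 5.25%). The gap also narrowed for YY1 (12.0% against 9.09%) and, by less, for ETS (16.5% against 7.39%) and NRF1 (9.53% against 4.77%). For E2F (5.56% against 3.83%) and the CRE (4.42% against 2.98%) it narrowed slightly too. The gap widened for the CCAAT box (39.4% against 34.0%) and the E-box (10.7% against 8.51%). Both region settings change which regions enter by their construction. The cause of the change with the window was not tested. Over all alternatives the ratio of levels ran from 1.51 to 1.98, of widths from 1.27 to 1.46 and of levels per kb from 1.18 to 1.38. With 10 strata of level in place of 5, the median ratio of widths was 1.05 and the GC difference 0.611 points. No paired analysis was possible because the values used are 1 mean over all samples, and leaving out a replicate was impossible for the same reason. The precision of a value is unknown, as depth and spread between samples are.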

Other observations

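Divergent noncoding starts were found beside some single genes. Of the 7106 one-gene promoters, 824 (11.6%) also held the start of a long noncoding RNA that points away from the gene within 1000 bp. Their median was 68.5 normalized counts over 3064.5 bp, between the 48.4 over 2473 bp of the 6196 one-gene promoters with no divergent noncoding start and the 85.1 over 3452 bp of the bidirectional protein-coding promoters.

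Chromosomes differed in how many promoters were shared. Of bidirectional and one-gene promoters together, the bidirectional share was highest on chromosome 11 (11.4%, 50 regions), followed by chromosomes 12 (10.3%, 44 regions) and 15 (10.1%, 27 regions). It was lowest on chromosome 10 (5.36%, 17 regions). Over all autosomes there were 630 bidirectional and 7106 one-gene promoters. Whether the spread between chromosomes exceeds that of such small counts was not tested.

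Bidirectional promoters held 4.08% of the summed mean normalized count of all regions in 0.646% of the regions. Most regions are not promoters, since 86860 held no protein-coding start and had a median of 3.85. The excess is therefore not a comparison with other promoters. In 20 of the bidirectional promoters (3.17%) the mark spanned 1 whole gene or both, and in 8 it spanned both genes. Beside histone genes, these were short genes such as ADM, the gene of the peptide adrenomedullin, BANF1, the gene of a chromatin-binding nuclear envelope factor, and RRAGA, the gene of a Rag GTPase in nutrient sensing.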
